A study of Mus musculus with 2 samples.

Results

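The genes described here encode the extracellular matrix of the embryonic mesoderm. They are 51 of the 27998 genes in the count tables, chosen by symbol: fibrillar and other collagens, basement membrane proteins, fibronectin, proteoglycans with the hyaluronan synthase, elastic fibre proteins and matricellular proteins. Cells that express Mesp1Cre early in mesoderm formation, and their descendants, were labelled with GFP, sorted from the pharyngeal apparatus and heart of Swiss Webster mouse embryos at E9.5 as GFP+ DAPI- cells, and profiled by droplet-based single-cell RNA sequencing of 3′ ends. There was 1 library of Mesp1Cre;Rosa26-GFPflox/+ embryos (Ctrl) and 1 of embryos that also carried Tbx1flox/flox (cKO), so that Cre and the reporter were present in both. Each library pooled a pair of embryos and was 1 sample. The comparison asks how matrix expression in the cardiopharyngeal mesoderm differs when Tbx1, which encodes a T-box transcription factor, is inactivated there. With 1 library per genotype no test between genotypes was possible. The pools also differed slightly in somite number, so genotype, stage and library cannot be told apart.

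The extracellular matrix is the network of secreted proteins and polysaccharides around cells. Fibrillar collagens give it tensile strength, type IV collagen and laminins form the sheet-like basement membrane under endothelium and epithelium, and fibronectin is assembled into fibrils through integrins on the cell surface. In the early heart a hyaluronan-rich matrix rich in versican, called cardiac jelly, lies between myocardium and endocardium, and matricellular proteins such as periostin and tenascin-C modulate how cells attach to the rest.

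The tables held 7418 cell barcodes in the library labelled Ctrl and 10281 in the one labelled cKO, of which 15 barcodes were shared. After filters on detected genes, mitochondrial share and presumed doublets, 6591 and 8969 cells remained, with medians of 16854 and 14192 unique molecular identifiers (UMIs) per cell. Levels are in counts-per-million units (CPM), the UMIs of a gene relative to all UMIs summed over the cells of a library or population, with exact 95% Poisson intervals, and ratios are log2 of the cKO over the Ctrl level. Intervals cover counting error only, not the spread between embryos. Because 3′ libraries count 1 tag per molecule, the levels were not divided by transcript length. Over all kept cells, fewer cells of a type and less RNA per cell cannot be told apart, so ratios were also taken within cell populations. The mix of cells within a population can differ between the libraries too. Tbx1 itself stood at 26.5 CPM in the library labelled Ctrl and 44.5 CPM in the one labelled cKO over all kept cells, at 55.9 and 122 CPM in the MLP-like cells and at 120 and 95.2 CPM in the BrM-like cells. These 3′ counts do not separate transcripts of the recombined allele, and the level was not lower in 2 of these 3 groups of cells. The genotypes are therefore given as the libraries were labelled.

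Cells fell into 17 populations with at least 50 cells in both libraries, clustered without the 51 genes. Of these, 11 were named from marker genes: MLP-like for the multilineage primed progenitors of the pharynx, BrM-like for progenitors of the branchiomeric muscles, SoM/aSHF-like for somatic mesoderm with the anterior part of the second heart field, pSHF-like for its posterior part, CM-like for cardiomyocytes, and further endocardium-like, endothelium-like, epicardium-like, septum transversum-like, paraxial mesoderm-like and limb and somatic lateral plate-like cells. The other 6 were left unnamed and are given by number with their leading genes. Cluster 6 held more of the limb and somatic lateral plate markers (85.7%, with Tbx5, Hoxb5 and Hoxb6) than the population so named (57.1%, without these). It stayed unnamed because another marker list had more genes among its leading genes. Markers of neural crest, which lies outside this lineage, summed to 0.604 CPM in the library labelled Ctrl and 0.687 CPM in the one labelled cKO. Erythroid-like cells made up 159 cells of the library labelled cKO and 0 of the other. In them the 51 genes summed to 132 CPM, which serves as a measure of free RNA in that library only, with 7 genes at 0 and 15.5 CPM for Col3a1 as the highest. Erythroid-like cells had a median of 25427 UMIs, against 14192 over all kept cells of that library. A fixed amount of free RNA would thus be a smaller share of their UMIs, and the background of other cells can be higher.

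A gene was called expressed at 20 CPM or more and 30 UMIs or more in at least 1 of the libraries of a population, and higher or lower when expressed and at least 1.5-fold apart. A gene below 20 CPM in 1 library could thus count as expressed through the other alone, which fixes the direction of its uncentred ratio there. The same limit was used for all genes. Over all kept cells 32 of the 51 genes were expressed, 8 were expressed in each of the 17 populations (Col3a1, Col5a2, Fn1, Vcan, Fbn2, Fbln1, Mfap2 and Sparc), and 6 in none of them (Col6a2, Col6a3, Lama5, Eln, Fbln5 and Thbs1). The 51 genes summed to 2653 CPM (95% interval 2643 to 2662) in the library labelled Ctrl and 2159 CPM (2151 to 2167) in the one labelled cKO, a log2 ratio of -0.30 (-0.30 to -0.29). Without Fn1 the sums were 2405 and 2054 CPM, a log2 ratio of -0.23. The summed level was lower in the library labelled cKO in 16 of the 17 populations. The exception was cluster 13, with sums of 5403 and 5438 CPM. In the middle cell by rank, matrix genes took 0.226% of UMIs in the library labelled Ctrl and 0.183% in the other, while the quartiles lay at 0.167% and 0.317% and at 0.131% and 0.273%, so that the cells of both libraries overlapped broadly.

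**Figure D1:**
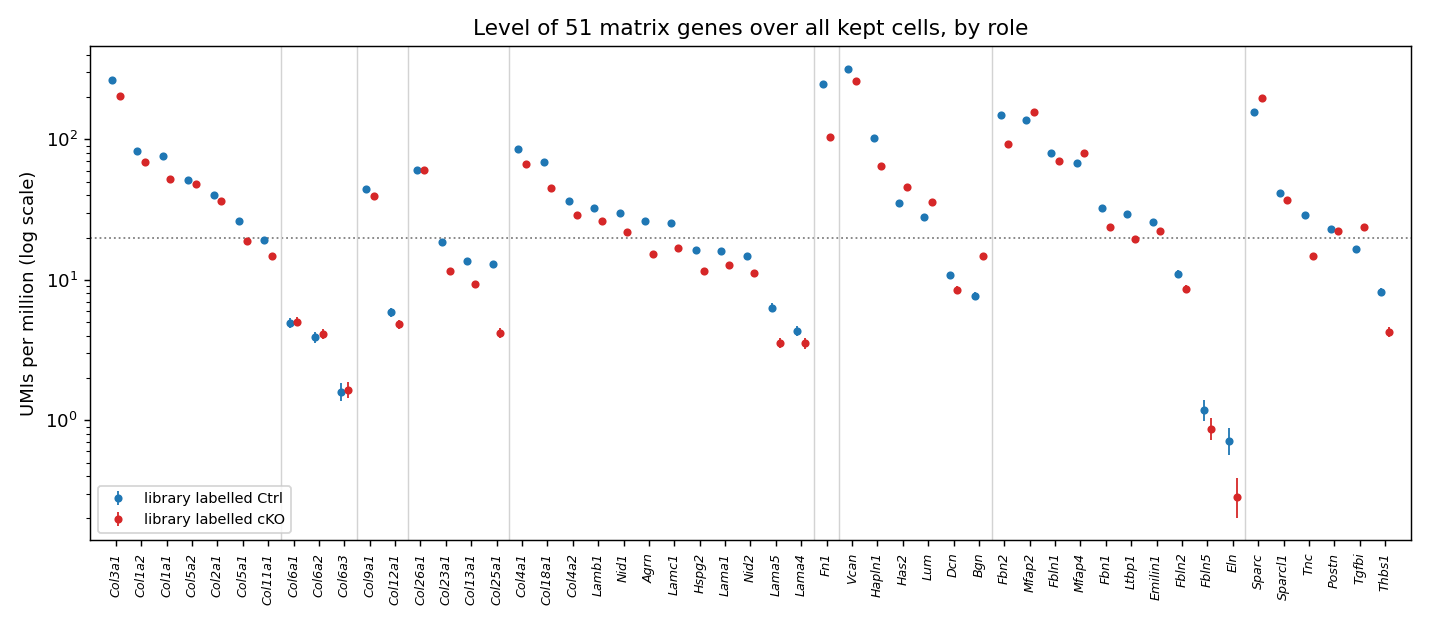
Level of each of the 51 matrix genes over all kept cells, in CPM on a log axis, grouped by role (vertical lines); points are the library labelled Ctrl (blue) and the library labelled cKO (red), bars are 95% Poisson intervals and the dotted line is the 20 CPM limit. Vcan, Col3a1 and Fn1 were highest in the library labelled Ctrl, and Fn1 shows the widest gap among the genes above 100 CPM, 247 against 105 CPM.

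Over all kept cells 7 of the 32 expressed genes were at least 1.5-fold lower in the library labelled cKO, 21.9% of them, where 8.34% of all 5812 expressed genes were, and 0 were 1.5-fold higher, where 1.58% of all were. The median log2 ratio of the matrix genes was -0.29, beside -0.09 for all expressed genes. Transcript length moved with these ratios. In the shortest of 4 equal classes of all expressed genes by transcript length the median log2 ratio was 0.11 and in the longest it was -0.38, and 1.40% and 21.1% of genes in these classes were at least 1.5-fold lower. Of the 32 expressed matrix genes 20 were in the longest class, among them all 7 that were lower, and their median there was -0.47. Centred on the median of their own length class, the matrix genes had a median log2 ratio of 0.01, and 2 of them, Fn1 and Tnc, were still at least 1.5-fold lower, where 1.84% of all genes were, while 1, Tgfbi, was 1.5-fold higher, where 1.59% of all were. The part of length in the lower matrix levels was not tested. Each ratio named from here on is uncentred unless said otherwise. Length-centred ratios were taken over all kept cells and in the populations, not in single clusters.

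**Figure D2:**
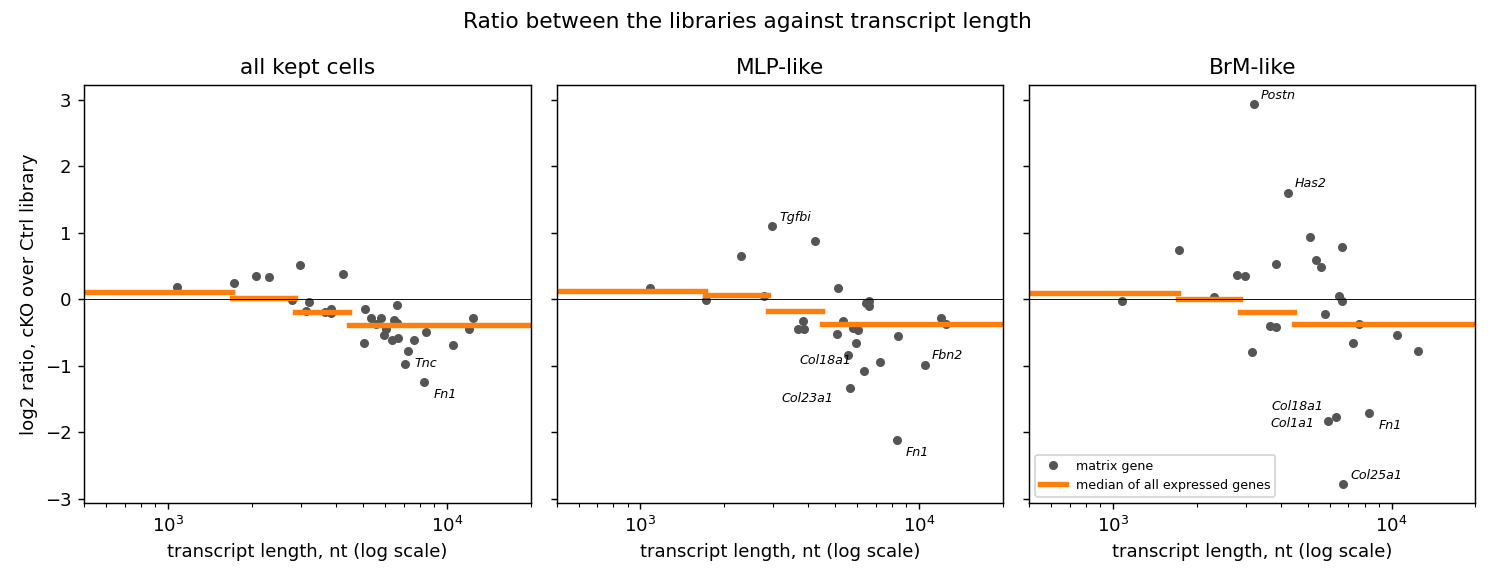
Log2 ratio of the cKO over the Ctrl library (vertical axis) against transcript length in nucleotides (log axis) for the expressed matrix genes over all kept cells, in MLP-like and in BrM-like cells; orange bars are medians of all expressed genes per length class, drawn up to the axis limits. The orange bars fall from 0.11 to -0.38 over all kept cells, where 3 of the 32 matrix genes lie at least 1.5-fold from the bar of their class, whereas in BrM-like cells 8 of 26 lie that far above and 5 that far below. The ratios of Fn1 in MLP-like cells (-2.11) and of Postn (2.94), Col25a1 (-2.78) and Has2 (1.60) in BrM-like cells are among those far from them.

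Fibronectin, the fibril-forming glycoprotein through which many mesodermal cells attach by integrins, was called lower in more populations than any other of the 51 genes. Fn1 (ENSMUSG00000026193; GRCm38 chromosome 1, 71585473 to 71653280) stood at 247 CPM (244 to 250) in the library labelled Ctrl and at 105 CPM (103 to 106) in the one labelled cKO. The log2 ratio was -1.24 (-1.27 to -1.21), and -0.86 after centring on length. It was lower in the library labelled cKO in all 17 populations and at least 1.5-fold lower in 16 of them.

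The size of the Fn1 difference varied between populations. In MLP-like cells the level was 317 CPM against 73.3 CPM, a log2 ratio of -2.11 (-2.20 to -2.03). In SoM/aSHF-like cells it was 462 against 113 CPM (-2.03), and in BrM-like cells 191 against 58.1 CPM (-1.71). Thus the 3 widest ratios among named populations were those of the pharyngeal progenitors and their neighbours, together with cluster 7 (led by Crym, Fst and Ebf2), at 302 against 87.5 CPM (-1.78). All of these ratios were past 1.5-fold after centring on length too, at -1.75, -1.66, -1.35 and -1.42. Endocardium-like cells had by far the highest level in both libraries, 1757 CPM and 1232 CPM, and the smallest log2 ratio, -0.51 (-0.59 to -0.44). In pSHF-like cells the levels were 105 and 63.4 CPM, in endothelium-like cells 296 and 166 CPM, and in CM-like cells 98.5 and 56.3 CPM. After centring on length, Fn1 was at least 1.5-fold lower in 7 of the 17 populations, with these 3 not among them, and below 0 in all 17. The cells of different sex come from different embryos of a pool. Fn1 had a log2 ratio of -1.01 over the cells with Xist UMIs only and of -1.47 over those with Y-linked UMIs only, so that it was lower in both. The summed level of the 51 genes had log2 ratios of -0.11 and -0.54 in these cells. In the former 5 of 32 expressed matrix genes were at least 1.5-fold lower (15.6%, against 7.14% of all expressed genes) and in the latter 17 of 33 (51.5%, against 10.9%).

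Within the MLP-like population, the 3 clusters that compose it were all lower in Fn1. The levels were 239 against 74.1 CPM in cluster 4, 431 against 57.8 CPM in cluster 11 and 402 against 87.0 CPM in cluster 15. The library labelled Ctrl spread over a wider range of Fn1 among these clusters than the one labelled cKO. Among the 3 CM-like clusters, cluster 16, led by sarcomere genes such as Myh6, had 34.9 and 33.1 CPM with an interval of the log2 ratio from -0.48 to 0.34, so that no difference was detectable at this depth. The other 2 had 237 against 147 CPM in cluster 21 and 81.9 against 40.7 CPM in cluster 22. Clusters 16, 21 and 22 had 132, 71 and 58 cells in the library labelled Ctrl and 281, 85 and 97 in the other. A ratio over all CM-like cells depends on this mix too, to an extent that was not tested. In all, Fn1 was lower in 23 of 23 single clusters with at least 50 cells per library, at least 1.5-fold in 19 of them.

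Shares of cells with an Fn1 UMI were compared after thinning each cell to 5000 UMIs. In MLP-like cells the share was 69.2% (66.0 to 72.3, Clopper-Pearson) in the library labelled Ctrl and 28.9% (26.3 to 31.5) in the other, and in SoM/aSHF-like cells 83.2% and 38.6%. Without thinning the shares were 91.6% and 60.6% in MLP-like cells. In erythroid-like cells, which should lack fibronectin, 11.3% had an Fn1 UMI unthinned, at a median of 25427 UMIs, and 1.89% (0.391 to 5.41) thinned. These cells were all of the library labelled cKO, whose shares of 28.9% and 38.6% lay above that. Both the share of cells and the level were thus lower.

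**Figure D3:**
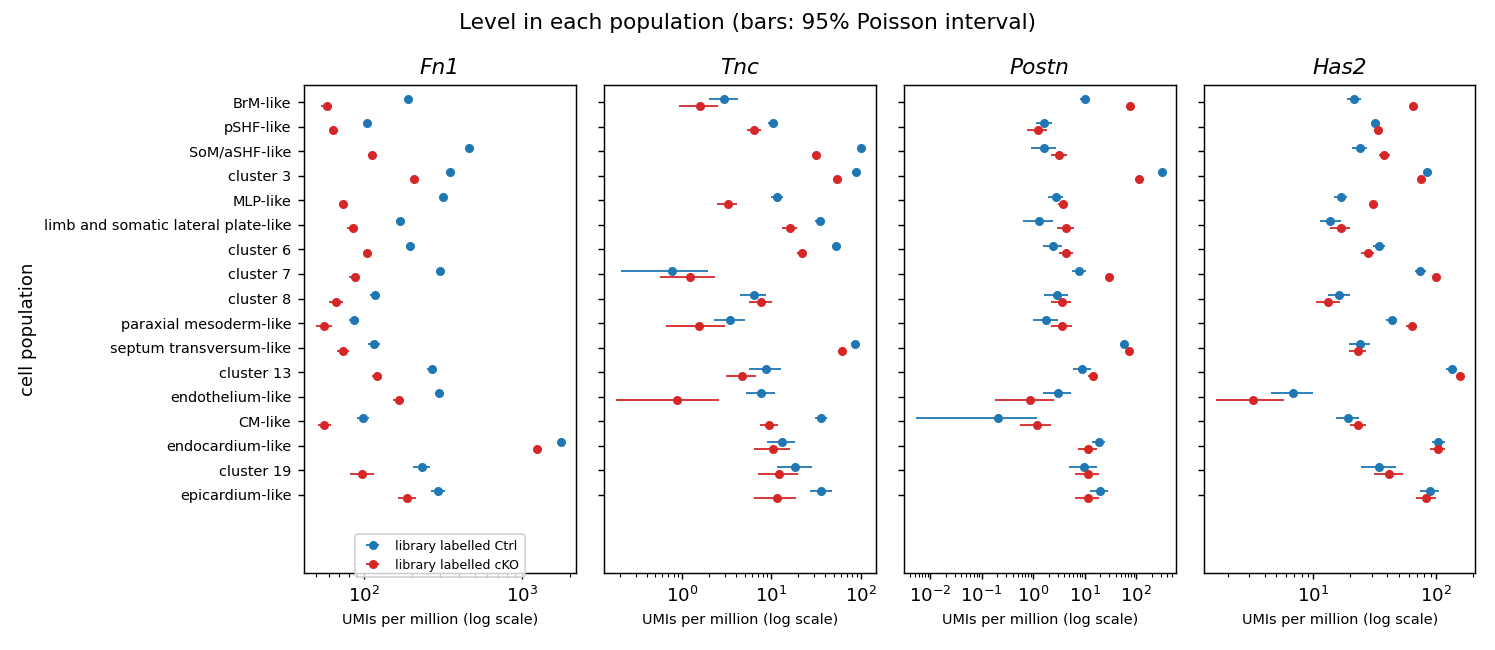
Level of Fn1, Tnc, Postn and Has2 in each of the 17 populations, in CPM on a log axis that differs between panels; points are the library labelled Ctrl (blue) and cKO (red), bars are 95% Poisson intervals, and a level of 0 has no point. Fn1 is left-shifted in the library labelled cKO in all rows, Postn is higher in it in BrM-like cells (10.0 against 76.7 CPM) and lower in cluster 3 (317 against 113 CPM).

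The fibrillar collagens form the banded fibres of connective tissue. Col3a1, which encodes the type III chain of distensible tissues, had 267 CPM in the library labelled Ctrl and 205 CPM in the one labelled cKO. The type I chains, the main protein of later skin and bone, followed at 83.2 and 68.6 CPM for Col1a2 and 76.2 and 52.2 CPM for Col1a1. The other 4 fibrillar genes, Col2a1, Col5a1, Col5a2 and Col11a1, lay between 14.7 and 51.2 CPM. Over all kept cells 6 of the 7 were expressed, with a median log2 ratio of -0.33, beside -0.09 for all expressed genes. None was past 1.5-fold, where 8.34% of all expressed genes were lower and 1.58% higher. Col1a1 was highest in cluster 3 (led by Postn, Alcam, Sfrp5 and Shox2), at 486 and 260 CPM, and Col3a1 in cluster 13 (led by Cbr3, Lum and Zic1), at 874 and 836 CPM. Col2a1, the cartilage collagen, was highest in CM-like cells in both libraries, at 175 and 129 CPM. Each of the 3 CM-like clusters had at least 115 CPM of Col2a1 in both libraries.

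Col1a1 was lower in all 14 populations that expressed it, at least 1.5-fold in 8, and Col3a1 was at least 1.5-fold lower in 8 of 17. After centring on length these counts were 2 and 1, with Col3a1 at least 1.5-fold higher in 2. In BrM-like and pSHF-like cells Col1a1 was below 20 CPM in the library labelled cKO (6.16 and 16.4 CPM). The direction of its uncentred ratio there was thus fixed by the limit of expression. The fibrillar genes did not move as a block in BrM-like cells. There Col1a1 had 22.0 against 6.16 CPM, a log2 ratio of -1.84 (-2.25 to -1.44). Its partner chain Col1a2 had 40.8 against 61.3 CPM (0.59), Col2a1 25.1 against 47.8 CPM (0.93) and Col5a2 20.5 against 35.1 CPM (0.78). In SoM/aSHF-like cells, by contrast, Col11a1 (45.6 against 21.6 CPM), Col2a1 (21.1 against 10.4 CPM), Col5a1 (27.7 against 14.7 CPM), Col1a2 (65.2 against 35.3 CPM) and Col1a1 (100 against 64.9 CPM) were all lower in the library labelled cKO, of which Col11a1 and Col2a1 stayed 1.5-fold lower after centring.

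Type VI collagen, which forms beaded microfibrils, was scarce. Col6a1 had 4.90 and 5.02 CPM, Col6a2 3.89 and 4.11 CPM and Col6a3 1.59 and 1.64 CPM in the libraries labelled Ctrl and cKO. Col6a1 alone reached 20 CPM, in cluster 3, just at the limit of expression, in the library labelled Ctrl. Among the fibril-associated collagens, Col9a1, which decorates cartilage fibrils, had 44.1 and 39.6 CPM, highest in cluster 7 at 141 CPM in the library labelled Ctrl and in cluster 13 at 154 CPM in the other. Col12a1 had 5.87 and 4.81 CPM and was expressed in SoM/aSHF-like cells, at 22.1 against 8.73 CPM (log2 ratio -1.34), and in CM-like cells.

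Among the transmembrane and other collagens, Col26a1 had 61.0 and 60.6 CPM, Col23a1 18.7 and 11.6 CPM, Col13a1 13.5 and 9.29 CPM, while Col25a1 was lower still. Col25a1, a transmembrane collagen needed for motor innervation of muscle, was expressed in 1 of the 17 populations, the BrM-like cells. Its level there was 99.3 CPM (1010 UMIs) in the library labelled Ctrl and 14.4 CPM (157 UMIs) in the one labelled cKO, a log2 ratio of -2.78 (-3.03 to -2.54) and the lowest ratio of any expressed matrix gene in the 17 populations. After thinning, 31.2% of BrM-like cells in the library labelled Ctrl and 5.35% in the other had a Col25a1 UMI. Among erythroid-like cells 0 of 159 had one, with an upper Clopper-Pearson limit of 2.29%. Col13a1, found at sites of adhesion, was also highest in BrM-like cells, at 58.5 against 33.8 CPM (-0.79). Col23a1 was at least 1.5-fold lower in 6 of 8 populations that expressed it, with 47.6 against 14.7 CPM in endocardium-like cells (-1.70), 25.4 against 8.96 CPM in paraxial mesoderm-like cells (-1.50) and 20.8 against 8.28 CPM in MLP-like cells (-1.33). In the populations just named and in cluster 19 (17.6 CPM) Col23a1 was below the limit of expression in the library labelled cKO. The direction of its uncentred ratio there was thus fixed by that limit. Where both libraries reached the limit, Col23a1 had 91.8 against 42.8 CPM in cluster 7 and 46.3 against 26.4 CPM in endothelium-like cells. In clusters 8 and 13, also above the limit in both, it was within 1.5-fold. Col23a1 was at least 1.5-fold lower in 4 of the 8 populations after centring on length.

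Of the basement membrane genes 9 of 12 were highest in the endocardium-like or endothelium-like cells in the library labelled Ctrl. Col4a1, which with Col4a2 encodes the main type IV trimer, had 85.0 and 66.4 CPM over all kept cells, Col18a1, whose product releases endostatin, 68.9 and 45.1 CPM, and Col4a2 36.2 and 29.1 CPM. The other 9 genes, encoding laminin chains (Lama1, Lama4, Lama5, Lamb1, Lamc1), the linker nidogen (Nid1, Nid2), perlecan (Hspg2) and agrin (Agrn), lay between 3.54 and 32.3 CPM. Of the 12 genes 7 were expressed over all kept cells, with a median log2 ratio of -0.45, beside -0.09 for all expressed genes. Of these 3 were lower (Agrn, Col18a1 and Lamc1), where 8.34% of all expressed genes were. None of the 3 was past 1.5-fold after centring on length. Over the 14 populations that expressed it, Agrn had log2 ratios from -0.43 to -1.18 and was at least 1.5-fold lower in 12, but in 1 of 14, the endothelium-like cells, after centring, although below 0 in all 14. In the library labelled cKO Agrn reached 20 CPM only in BrM-like (21.0 CPM) and endocardium-like cells (29.9 CPM). In the others it counted as expressed through the library labelled Ctrl alone, so that an uncentred ratio below 0 was fixed there.

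In endocardium-like cells Col4a1 stood at 482 and 284 CPM, Col4a2 at 235 and 142 CPM, Col18a1 at 452 and 297 CPM and Nid1 at 210 and 114 CPM in the libraries labelled Ctrl and cKO. All 4 were highest there in both libraries, and their log2 ratios of -0.76, -0.72, -0.61 and -0.89 shrank to -0.40, -0.36, -0.25 and -0.53 after centring. Col18a1 differed more in BrM-like cells, at 90.5 against 26.4 CPM (-1.78), and in MLP-like cells, at 35.9 against 17.0 CPM (-1.08), both past 1.5-fold after centring too. In SoM/aSHF-like and pSHF-like cells its centred ratios were -0.05 and 0.07. In the MLP-like clusters 11 and 15 Col18a1 had 49.8 against 14.3 CPM and 46.5 against 14.4 CPM, and in cluster 4 26.4 against 19.1 CPM.

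Col4a1 and Col4a2 lie head to head on GRCm38 chromosome 8, Col4a1 from 11198423 to 11312889 on the minus strand and Col4a2 from 11312805 to 11449287 on the plus strand, so that their annotated ends overlap by 85 bases. Their levels ran in parallel over the 17 populations, with Pearson's r of log2(CPM + 1) of 0.99 in either library, a description across populations that share libraries and base composition. Neighbouring matrix genes did not do so in general. The pair Col6a1 and Col6a2, 85161 bases apart on chromosome 10, had r = 0.96 and 0.87 at low levels, Col3a1 and Col5a2, 24624 bases apart on chromosome 1, 0.60 and 0.59, Dcn and Lum, 47337 bases apart, 0.44 and 0.41, and Hapln1 and Vcan, 43476 bases apart on chromosome 13, -0.32 and -0.29.

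Proteoglycans and hyaluronan form the hydrated part of the matrix. Vcan, the versican core protein of cardiac jelly, had 317 and 260 CPM, Hapln1, the link protein that ties versican to hyaluronan, 102 and 64.7 CPM, and Has2, the main embryonic hyaluronan synthase, 35.2 and 45.6 CPM. The small leucine-rich proteoglycans that sit on collagen fibrils, Lum, Dcn and Bgn, lay between 7.69 and 35.6 CPM. Hapln1 was concentrated in endocardium-like cells, at 1654 and 1345 CPM, and in endothelium-like cells, at 654 and 401 CPM. In BrM-like cells it had 2.75 CPM in the library labelled Ctrl.

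Has2 differed from most of the set in being higher in the library labelled cKO. Its level in BrM-like cells was 21.4 against 65.1 CPM, a log2 ratio of 1.60 (1.38 to 1.83), in MLP-like cells 16.7 against 30.5 CPM (0.87) and in SoM/aSHF-like cells 23.7 against 37.6 CPM (0.67). It was above 0 in 9 of 14 populations and 1.5-fold lower in none. After thinning, 6.20% of BrM-like cells in the library labelled Ctrl and 24.7% in the other had a Has2 UMI, beside 1.89% (0.391 to 5.41) of erythroid-like cells. Vcan was lower in BrM-like cells, 210 against 122 CPM, and in SoM/aSHF-like cells, 266 against 161 CPM, although within 1.5-fold in both after centring (-0.41 and -0.36). In CM-like cells Vcan had 608 against 368 CPM (-0.73), a ratio within 1.5-fold after centring, and the difference was widest in cluster 21, at 992 against 485 CPM, where cluster 16 had 295 and 257 CPM. Vcan also had 62.4 against 16.4 CPM in endothelium-like cells (-1.92, and -1.54 centred).

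The small proteoglycans were highest in different populations. Lum, lumican, was highest in cluster 13 at 183 and 339 CPM (0.89), Bgn, biglycan, in cluster 7 at 47.0 and 69.8 CPM, and Dcn, decorin, in epicardium-like cells at 66.8 and 116 CPM. That Dcn ratio, 0.79, turned to between -0.87 and -0.79 under 3 other ways of clustering, in which 454 to 515 cells of the library labelled Ctrl and 827 to 1017 of the other bore that name. In cluster 3 Lum had 173 against 69.3 CPM and Dcn 40.2 against 13.8 CPM, both lower in the library labelled cKO, and in septum transversum-like cells Lum had 26.1 against 56.2 CPM, a direction that turned in cells with Y-linked UMIs only (-0.50). Whether the populations differed in direction was not tested. In cluster 3 18.2% and 14.3% of thinned cells had a Lum UMI, and 0.629% of thinned erythroid-like cells did.

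Elastic fibres consist of microfibrils, built from fibrillins, around elastin. Fbn2, the fibrillin of the early embryo, had 150 and 93.5 CPM, Mfap2, a small microfibril glycoprotein, 139 and 157 CPM, and Fbln1, which binds fibronectin and versican, 79.7 and 70.0 CPM. The other 7 genes (Mfap4, Fbn1, Ltbp1, Emilin1, Fbln2, Fbln5 and Eln) ran from 0.29 CPM for Eln in the library labelled cKO to 80.6 CPM for Mfap4 in the same library. Elastin itself was thus all but unmeasured, with 83 UMIs in the library labelled Ctrl and 39 UMIs in the one labelled cKO. Fbn2 was below 0 in 17 of 17 populations and at least 1.5-fold lower in 8, with 160 against 80.9 CPM in MLP-like cells (-0.99) and 122 against 62.4 CPM in SoM/aSHF-like cells (-0.97). These 2 populations were also those with a 1.5-fold lower Fbn2 after centring. Ltbp1, which binds latent TGF-beta, was at least 1.5-fold lower in 9 of 11 populations, and in 1 after centring. Mfap2 and Mfap4, which have short transcripts, were above 0 in 14 of 17 and 11 of 14 populations.

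Of the 6 matricellular genes, Postn and Sparcl1 were called in both directions in different populations, Tnc only lower, Sparc and Tgfbi only higher, and Thbs1 was expressed in none. Sparc, a collagen-binding glycoprotein, had 158 and 198 CPM, Sparcl1, its relative, 41.7 and 36.8 CPM, and Tnc, tenascin-C, 28.9 and 14.7 CPM. Postn, Tgfbi and Thbs1 lay between 4.28 and 23.8 CPM. Sparc was above 0 in 15 of 17 populations, with 61.7 against 97.1 CPM in MLP-like cells (0.65) and 39.0 against 83.5 CPM in paraxial mesoderm-like cells (1.10).

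Tnc was lower in the library labelled cKO in all 7 populations that expressed it, at least 1.5-fold in 6 of them and in 5 after centring. In the library labelled cKO, Tnc was below the limit of expression in CM-like and epicardium-like cells (9.49 and 11.4 CPM). The same held in limb and somatic lateral plate-like cells (16.0 CPM). The direction of these uncentred ratios was thus fixed by that limit. Tnc was also lower where both libraries reached the limit, in SoM/aSHF-like and septum transversum-like cells and in clusters 3 and 6. In SoM/aSHF-like cells, where its level in the library labelled Ctrl was highest, it had 100 CPM (912 UMIs) and 31.5 CPM (314 UMIs), a log2 ratio of -1.67 (-1.86 to -1.48). In CM-like cells it had 36.2 and 9.49 CPM (-1.93), of which cluster 21 had 119 and 33.0 CPM and cluster 16 4.36 and 3.65 CPM. In septum transversum-like cells the log2 ratio was smallest, -0.49. After thinning, 38.0% of SoM/aSHF-like cells in the library labelled Ctrl and 14.7% in the other had a Tnc UMI, beside 0 of 159 erythroid-like cells.

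Postn, which encodes periostin, a matricellular protein of mesenchyme and later of valves and fibroblasts, had nearly the same level over all kept cells, 23.2 and 22.4 CPM, but not within populations. In BrM-like cells it stood at 10.0 CPM (102 UMIs) in the library labelled Ctrl and 76.7 CPM (834 UMIs) in the one labelled cKO, a log2 ratio of 2.94 (2.64 to 3.25). In cluster 7 it had 7.83 against 29.5 CPM (1.91). In cluster 3, where it was highest in both libraries, it had 317 against 113 CPM (-1.49). Septum transversum-like cells had 56.6 CPM in the library labelled Ctrl and were within 1.5-fold. The share of thinned BrM-like cells with a Postn UMI was 2.44% (1.31 to 4.14) in the library labelled Ctrl and 25.9% (22.8 to 29.3) in the other. In erythroid-like cells thinned in the same way 0.629% (0.0159 to 3.45) had one, 1 of 159 cells, at 1.20 CPM (0.388 to 2.79). These cells were all of the library labelled cKO, so the background of the library labelled Ctrl was not measured. Tgfbi, a collagen-binding secreted protein, was 20.1 against 43.0 CPM in MLP-like cells (1.10), and higher in each of its 3 clusters, at 19.4 against 37.9, 20.5 against 48.0 and 22.2 against 50.6 CPM.

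Promoter sequence was analysed for 33 of the 51 genes, in 43 windows around annotated starts (RefSeq, GRCm38.p6). Those of the other 18, Fn1 and Has2 among them, were not analysed here. The T-box element AGGTGTGA was in 0 of these windows on either strand, and in 1.28% of 32851 windows of all genes. The letters TATAAA were in 5 windows, of Col3a1, Col13a1, Postn and Tnc, 11.6% against 13.6% of all windows. The cyclic AMP response element TGACGTCA was in 1 window, of Ltbp1, against 1.79% of all. Absence of a match says only that these letters are not in the window. The 250 bases before a start are shown for the 2 matricellular genes with the widest ratios, with TATAAA in capitals. That of Postn (chr3:54360857-54361106, plus strand) belongs to the downstream start of the 2 annotated for the gene and has the element 26 bases before it. That of Tnc (chr4:64047016-64047265, minus strand) has it 126 bases before the start.
Postn: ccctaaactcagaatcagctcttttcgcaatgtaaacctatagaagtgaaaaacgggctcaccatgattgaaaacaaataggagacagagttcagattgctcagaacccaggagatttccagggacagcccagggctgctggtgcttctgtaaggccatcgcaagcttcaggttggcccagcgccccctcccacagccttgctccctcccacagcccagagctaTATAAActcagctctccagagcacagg
Tnc: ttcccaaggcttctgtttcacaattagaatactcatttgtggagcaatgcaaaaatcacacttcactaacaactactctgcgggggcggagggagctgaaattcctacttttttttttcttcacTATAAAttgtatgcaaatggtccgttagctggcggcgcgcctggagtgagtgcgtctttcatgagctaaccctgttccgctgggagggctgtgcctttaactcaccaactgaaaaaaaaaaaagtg

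Counted by population, the matrix genes gave 463 pairs of an expressed gene and a population. Of these 139 were at least 1.5-fold lower in the library labelled cKO, 30% of them, where 9.89% of the 97675 pairs of all genes were, and 18 were at least 1.5-fold higher, 3.89% against 2.77%. After centring on length the counts were 48, 10.4% against 3.97% of all pairs, and 27, 5.83% against 3.06%. Of the 45 matrix genes expressed in at least 1 population 27 were called only lower (60.0%, against 32.9% of all such genes), 6 only higher (13.3% against 12.4%), 7 in both directions in different populations (15.6% against 1.90%) and 5 in neither. After centring 19 were called only lower, 8 only higher, 8 in both directions and 10 in neither, where 20.5%, 15.2%, 2.19% and 62.1% of all genes were.

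**Figure D4:**
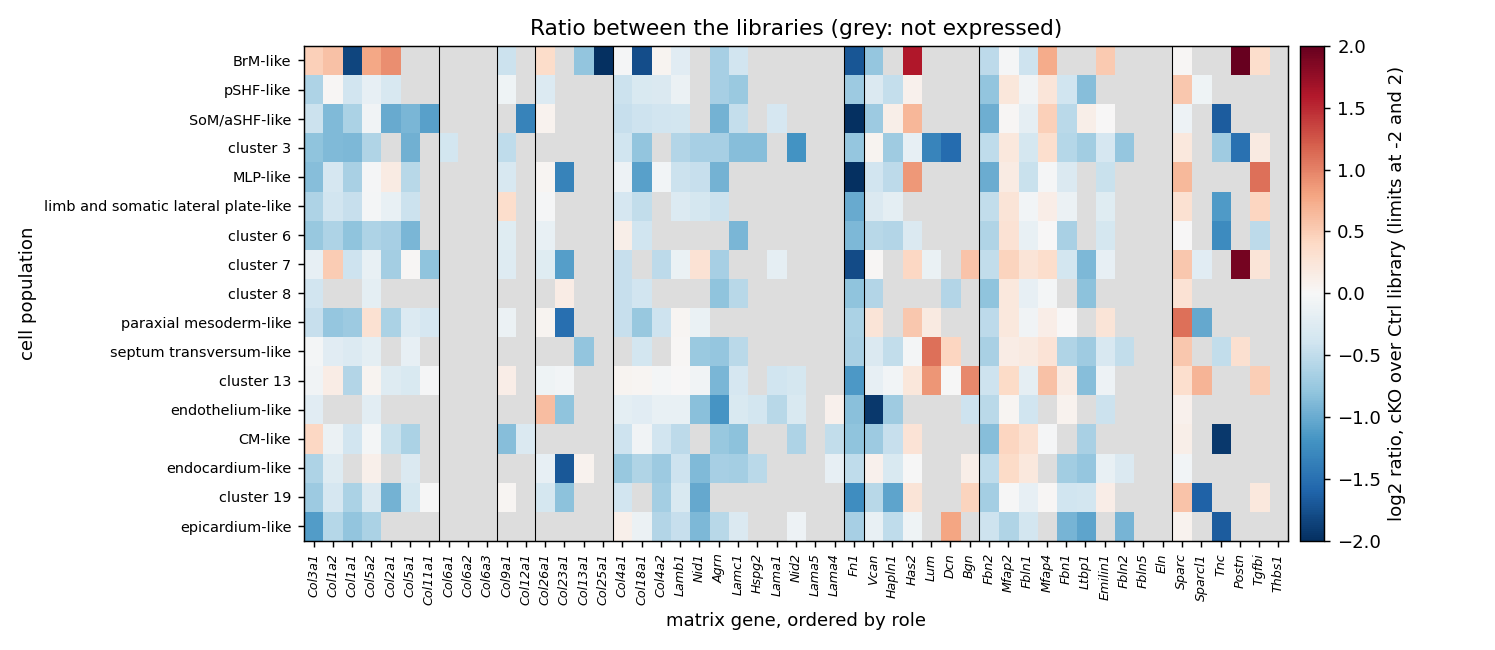
Log2 ratio of the cKO over the Ctrl library for each matrix gene (columns, by role, separated by lines) in each of the 17 populations (rows), with blue for lower and red for higher in the library labelled cKO, colours limited at -2 and 2, and grey where a gene was not expressed. The Fn1 column is blue in all rows, cluster 3 has the most genes that were lower (20 of 33), and the BrM-like row holds both the strongest blue (Col25a1) and the strongest red (Postn).

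In BrM-like cells, 6 of the 26 expressed matrix genes were at least 1.5-fold higher (23.1%, against 3.22% of all expressed genes) and 7 lower (26.9%, against 11.9%). Their median log2 ratio was -0.02, beside -0.10 for all expressed genes. The higher genes were Postn, Has2, Col2a1, Col5a2, Mfap4 (64.9 against 108 CPM) and Col1a2, and the lower ones Col25a1, Col1a1, Col18a1, Fn1, Col13a1, Vcan and Agrn (33.1 against 21.0 CPM). After centring on length 8 were higher and 5 lower, where 4.13% and 6.01% of all genes were.

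In MLP-like cells 3 of 27 were higher (Tgfbi, Has2 and Sparc; 11.1%, against 2.11% of all) and 7 lower (25.9%, against 10.5%), with medians of -0.38 and -0.07. The lower genes were Fn1, Col23a1, Col18a1, Fbn2, Agrn (26.3 against 13.7 CPM), Col3a1 (208 against 116 CPM) and Col1a1 (56.4 against 35.8 CPM), and the first 4 of these were still past 1.5-fold after centring (4.84% of all), as were the 3 higher ones (2.61%). In SoM/aSHF-like cells 11 of 29 were lower (37.9%, against 9.55% of all) and 1 higher (Has2; 2.19% of all), with medians of -0.43 and -0.08. After centring Fn1, Tnc, Col12a1, Col11a1, Col2a1 and Fbn2 were still lower (4.05% of all) and Has2 higher (2.31%).

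Before centring no matrix gene was 1.5-fold higher in pSHF-like, CM-like or endocardium-like cells. The pSHF-like cells had 6 of 25 lower (8.3% of all) and 0 higher (1.72%), namely Ltbp1, Fbn2, Lamc1, Fn1, Agrn and Col3a1, and 0 in either direction after centring. CM-like cells had 10 of 27 lower (8.94%) and 0 higher (2.4%), and of these Tnc and Col9a1 (32.2 against 17.9 CPM) remained past 1.5-fold after centring (3.07% of all), when 1, Col3a1, was higher (0.78; 2.24% of all). Endocardium-like cells, whose summed level of 7408 and 5645 CPM was the highest, had 10 of 29 lower (12.6%) and 0 higher (3.18%), with 1, Col23a1, past 1.5-fold after centring (5.51% of all lower). Epicardium-like cells, 64 and 83 in number, had 10 of 25 lower (9.09%) and 1 higher (Dcn; 4.89%), with 7 lower (6.32% of all) and 1 higher, Dcn (5.49%), after centring. The 7 held Tnc (36.4 against 11.4 CPM) and Fbln2 (109 against 57.1 CPM), but not Col5a2 (-0.63, and -0.37 centred). The Dcn and Mfap2 ratios of these cells, 0.79 and -0.61, changed sign under 3 other ways of clustering. The name then covered 454 to 515 cells of the library labelled Ctrl and 827 to 1017 of the other.

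Among the unnamed populations cluster 3 had 20 of 33 lower (60.6%, against 7.11% of all) and 0 higher (1.99%), with medians of -0.66 and -0.08. After centring 6 of the 33 remained 1.5-fold lower (2.64% of all), Dcn, Postn, Lum, Nid2 (32.8 against 14.3 CPM), Col5a1 (65.5 against 33.5 CPM) and Col1a1. Cluster 13 had the second highest summed level and 3 of 36 genes in each direction, beside 11.4% lower and 3.93% higher among all genes. The 3 higher ones were Bgn (35.3 against 68.9 CPM), Lum and Sparcl1 (154 against 247 CPM). After centring 1 was lower, Fn1 (5.30% of all), and 4 higher, these 3 and Tgfbi (3.84%). Cluster 6 (led by Gal, Hoxc5 and Rgcc) had 11 of 24 lower (8.84%) and 0 higher (1.6%), of which Tnc (52.6 against 22.1 CPM) remained past 1.5-fold after centring (2.16% of all). Cluster 7 had 6 of 32 lower (10.4%) and 1 higher (2.89%), Postn, and the balance turned after centring, with 2 lower, Fn1 and Col23a1 (3.65% of all genes), and 4 higher, Postn, Has2, Col1a2 and Nid1 (3.53%). Cluster 8 (led by Barx1) had 5 of 16 lower (10.9%) and 0 higher (2.03%), and cluster 19 (led by Cpa1 and Maf) 10 of 29 lower (12.6%) and 0 higher (5.86%). After centring 1 gene of cluster 8, Dcn, and 5 of cluster 19 remained 1.5-fold lower, where 2.44% and 7.21% of all genes were, and 0 were higher.

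The trunk populations and the endothelium-like cells had between 3 and 8 matrix genes past 1.5-fold, and fewer that were lower after centring. Limb and somatic lateral plate-like cells had 3 of 25 lower (6.18%), Tnc, Fn1 and Col3a1, and 0 higher (1.75%). Centred, Tnc and Fn1 remained (2.29% of all) and Col3a1 did not (-0.33). Paraxial mesoderm-like cells had 7 of 27 lower (8.91%) and 1 higher (2.54%), Sparc. There the balance turned after centring, with 2 lower, Col23a1 and Sparcl1 (3.13% of all genes), and 4 higher, Sparc, Has2, Col5a2 and Vcan (2.61%). Of these cells' ratios, those of Sparcl1 and Col18a1 turned to 0.53 and 0.17 at a clustering resolution of 0.6. Septum transversum-like cells had 7 of 28 lower (9.56%) and 1 higher (2.71%), Lum, and 1 in each direction, Col13a1 and Lum, after centring (2.86% lower and 2.74% higher of all). Endothelium-like cells had 6 of 25 lower (11.4%), among them Vcan and Hapln1, and 1 higher (2.34%), Col26a1, at 13.2 against 20.3 CPM. After centring Vcan and Agrn remained lower (4.52% of all), while Hapln1 (-0.32) and Col26a1 (0.56) were within 1.5-fold.

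Genes that handle or bind the matrix were measured from lists of receptors, collagen-processing enzymes, proteases with their inhibitors, hyaluronan receptors and enzymes, and further matrix proteins, 119 genes in all. Over all kept cells 9 of 26 receptors, 9 of 22 processing genes, 7 of 19 proteases and inhibitors, 3 of 8 hyaluronan genes and 4 of 44 further matrix genes were expressed, of which 1, 1, 3, 1 and 1 were at least 1.5-fold lower and 0 higher, beside 8.34% lower and 1.58% higher among all expressed genes, so that 1 of 9 is close to the share of all genes. After centring 0, 0, 2, 0 and 0 were lower, the 2 being Adamts1 and Adamts9, and 0 higher. The 2 genes past 2-fold were the versican-cleaving proteases Adamts1 (80.7 against 39.4 CPM) and Adamts9 (35.2 against 16.4 CPM). Adamts9 had 117 against 16.5 CPM in BrM-like cells, the same direction as Vcan there. Of the inhibitors, Timp3 had 46.9 against 12.5 CPM in MLP-like cells. The collagen crosslinking enzyme Loxl2 had 60.6 against 26.4 CPM and the integrin subunit gene Itga9 81.4 against 38.8 CPM in the same cells. The ratios of these 3 genes were past 1.5-fold after centring too, at -1.54, -0.83 and -0.70. Npnt, the integrin ligand nephronectin, was higher in BrM-like cells, at 25.2 against 70.2 CPM, and Vtn, vitronectin, in cluster 13, at 11.3 against 49.8 CPM.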

How the data were processed

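The authors aligned reads to mm10 and counted UMIs with Cell Ranger 3.1.0, per the submitters' processing notes, and deposited the filtered matrices of raw counts, whole-number UMI counts per gene and barcode, without normalization. The labels give the 10x Genomics kit as v2 for both libraries, while the study's methods name v2 or v3.1 without tying either to a library. The 15 barcodes shared by the libraries are fewer than independent draws from the shorter barcode list of kit v2 would share, so the labelled kit is uncertain. The study's own cell-level models were not run here, because each genotype had 1 library.

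Cells with at least 1000 genes and at most 10% mitochondrial UMIs were kept, which removed 411 barcodes of the library labelled Ctrl and 508 of the one labelled cKO. Scrublet (scanpy 1.11.5) called 0% and 8.61% of cells on its own, so the highest scores were removed at 0.8% per 1000 cells (416 and 804 cells). Clustering used Seurat 5.3.0 under R 4.3.3 (2000 variable genes, 30 dimensions, reciprocal PCA integration, resolution 1), without 311 listed genes (the 51 matrix genes, further matrix genes, Tbx1, and genes of mitochondria, ribosomes, haemoglobin and sex) and without 1317 genes that were 2-fold apart between the libraries in a first pass. Names needed at least 3 markers, over 50% of a list and 1 marker among the 10 leading genes, with no other list having more there. These thresholds were set with the data in view. Unnamed clusters stayed numbers, and clusters under 50 cells in either library were not compared.

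Counts were summed per library and population, with exact Poisson intervals and exact conditional intervals for ratios (scipy 1.17.1), and with 95% Clopper-Pearson intervals for shares of cells thinned to 5000 UMIs. The calculation of ratios was tested on simulated data. Genes named were the 3 highest of each role, the expressed members past 1.5-fold within a population whose interval left out 1, up to 12 in each direction, and other matrix genes past 2-fold. Transcript lengths were the longest protein-coding transcript per gene identifier in GENCODE vM1, found for 98.4% of expressed genes. They formed 4 classes of equal size, and class medians served to centre the ratios, an alternative chosen after seeing the data. Coordinates came from RefSeq GRCm38.p6 for all 51 genes. Ltbp4, a listed non-member on 2 rows, was left out. The members and lists were chosen with earlier results of these data known.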

Additional observations from a re-analysis of the deposited data

Results flagged for a closer look

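7 matrix genes were at least 1.5-fold higher in 1 population and at least 1.5-fold lower in another, in each case beyond counting error. The differences between populations were not tested. Each value is the log2 ratio of the cKO over the Ctrl library. Postn had 2.94 in BrM-like cells and -1.49 in cluster 3. Lum had 1.11 in septum transversum-like cells and -1.32 in cluster 3. Dcn had 0.79 in epicardium-like cells and -1.55 in cluster 3. The epicardium-like Dcn value turned to -0.84 with presumed doublets kept, -0.87 without integration and -0.79 at resolution 0.6. That name then covered 454 to 515 cells of the library labelled Ctrl and 827 to 1017 of the other, against 64 and 83. The opposite direction of Dcn was thus lost in a wider group of cells. The septum transversum-like Lum value turned to -0.50 in cells with Y-linked UMIs only. Col2a1 had 0.93 in BrM-like and -1.02 in SoM/aSHF-like cells, and Col1a2 had 0.59 and -0.88 in the same 2 populations. Col5a2 had 0.78 in BrM-like and -0.63 in epicardium-like cells. Sparcl1 had 0.68 in cluster 13 and -1.62 in cluster 19, which had 107 cells in the library labelled Ctrl and 135 in the one labelled cKO. Centred on transcript length, 5 of the 7 genes were still past 1.5-fold in both of the populations named. Col1a2 in SoM/aSHF-like cells (-0.52) and Col5a2 in epicardium-like cells (-0.37) were then within 1.5-fold, and neither gene was called lower in any population.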

How the results depend on the processing

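The summed log2 ratio of the 51 genes, -0.30, was -0.28 with presumed doublets kept, -0.26 with totals that left out mitochondrial, ribosomal protein and haemoglobin genes, -0.20 with median-of-ratios scaling, and -0.11 and -0.54 in cells with Xist or with Y-linked UMIs only. Over all kept cells the Fn1 log2 ratio, -1.24, was -1.20 with those totals, -1.15 with median of ratios, -0.86 centred on length, and -1.01 and -1.47 by sex. The median log2 ratio of the members over all kept cells, -0.29, was -0.19 with median of ratios, -0.35 at 10 CPM and 10 UMIs, 0.013 centred on length, and -0.19 and -0.62 by sex. The number of lower genes, 7, was 4 with median of ratios, 2 centred on length and 17 in cells with Y-linked UMIs. At 10 CPM the BrM-like median was -0.23 with 11 lower genes, and MLP-like cells had 11 lower. In cells with Y-linked UMIs the BrM-like median was -0.18 and MLP-like cells had 11 lower. For the counts of 11, and for the 4 with median of ratios, no share of all genes was taken. Whether these counts exceed such a share therefore cannot be said. The MLP-like median was -0.23 in cells with Xist UMIs. Centred on length, a choice added after seeing the data, the medians were -0.082 in CM-like, -0.075 in MLP-like and -0.086 in SoM/aSHF-like cells, with 2, 4 and 6 lower genes, and medians turned positive in pSHF-like (0.066, with 0 lower), endothelium-like (0.023) and septum transversum-like cells (0.064). The cause was not tested.

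Of single genes past 1.5-fold over all kept cells and in named populations, 102 of 104 kept their direction with doublets kept, 96 of 98 without integration, 94 of 98 at resolution 0.6, 75 of 75 and 92 of 93 by sex, and 104 of 104 under each change of scale and after centring. Those that turned included Dcn (-0.84, -0.87 and -0.79) and Mfap2 (0.25, 0.18 and 0.18) in epicardium-like cells with doublets kept, without integration and at resolution 0.6. That name then covered 454 to 515 cells of the library labelled Ctrl and 827 to 1017 of the other. The rest were Col18a1 (0.17) and Sparcl1 (0.53) in paraxial mesoderm-like cells at resolution 0.6, and Lum (-0.50) in septum transversum-like cells with Y-linked UMIs. Xist-only values in endocardium-, epicardium- and paraxial mesoderm-like cells and Y-only values in epicardium-like cells were not given, for want of 50 cells. Without thinning, 84.8% and 60.0% of kept cells had an Fn1 UMI, against 56.8% and 33.1% thinned. No paired analysis was possible because each group had 1 library.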

Other observations

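Outside the 17 populations compared, the macrophage-like cells (7 in the library labelled Ctrl and 10 in the one labelled cKO) had summed matrix levels of 178 and 250 CPM, and cluster 24, led by platelet genes, with 13 and 9 cells, had 2623 and 2056 CPM.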
